A study of Mus musculus with 4 samples.

Results

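Spots of brain tissue rich in phagocyte transcripts were compared 7 days after photothrombotic (PT) injury according to whether they also held collagen transcripts. The PT model makes a focal ischaemic lesion of the cortex, and spatial transcriptomes were measured with Visium, in which barcoded spots under a fresh-frozen slice capture messenger RNA from a small patch that can hold several cells of different types. The series holds 4 capture areas with 2 slices each, 1 slice per mouse: WT mice at rest and 2 days post-injury (dpi) on 1 area, WT mice with PT injury at 7 dpi and at 21 dpi on 1 area each, and Cthrc1(creER); R26(DTA) mice with PT injury at 21 dpi. The labels give no age, and per the methods deletion was undetectable in the last of these groups. The 2 slices of the 7 dpi area, both WT, are described here, and the WT slices at 21 dpi were used for comparison. Slices are the connected pieces of tissue on the area, and their numbers carry no meaning. In the 7 dpi area, slice 1 held 978 spots with a median of 14570 unique molecular identifiers (UMIs) and slice 2 held 947 spots with a median of 14223.

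A spot counted as a phagocyte spot when it had at least 1000 UMIs and at least 5 UMIs of Gpnmb plus Trem2 per 10000, and 945 of the 1925 spots did. Among these, spots were chosen by their Col1a1 transcripts: 437 with at least 5 UMIs per 10000 are called fibrotic phagocyte spots (97 in slice 1 and 340 in slice 2), and 278 with under 1 are called Col1a1-low phagocyte spots (163 and 115). The remaining 230 lay between and served only as a middle class. The 715 spots compared are a small part of the 9340 tissue spots of the series. "Col1a1-low" is not Col1a1-free, since 75 of the 163 spots in slice 1 and 55 of the 115 in slice 2 held a Col1a1 UMI.

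Macrophages and microglia clear debris and lipid after ischaemia. Fibroblasts from the brain borders lay down collagen in the lesion core, and astrocytes form a glial scar around it. Gpnmb, a transmembrane glycoprotein, and Trem2, a lipid-sensing receptor, are expressed by phagocytes that have taken up lipid. Macrophages found in scars of several organs also express Spp1, which encodes osteopontin, and are described as scar-associated.

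The values that chose the spots are given as a description. Col1a1 (chr11:94936224-94953042, plus strand, GRCm38), a chain of type I collagen, stood at 0.304 UMIs per 10000 in the summed Col1a1-low spots of slice 1, 2.23 in the middle class and 14.6 in the fibrotic spots, and at 0.353, 2.55 and 30.4 in slice 2. Gpnmb (chr6:49036546-49070929, plus strand) stood at 9.36, 10.7 and 15.7 in slice 1 and at 20.03, 18.2 and 19.1 in slice 2. Trem2 (chr17:48346401-48354147, plus strand) stood at 8.14, 7.41 and 8.45, and at 10.4, 8.77 and 8.19. In slice 1 the fibrotic spots thus held more phagocyte transcripts than the Col1a1-low spots, and in slice 2 they did not. Just outside the phagocyte threshold, 78 spots had 4 to 4.98 UMIs of Gpnmb plus Trem2 per 10000, and just inside it 84 spots had 5 to 5.97. Just under the Col1a1-low threshold, 97 phagocyte spots had 0.506 to 0.999 Col1a1 UMIs per 10000, and just above it 48 had 1.02 to 1.47. On the 2 sides of the fibrotic threshold, 31 spots had 4.01 to 4.95 and 29 had 5.01 to 5.93.

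The label was checked against myeloid genes that played no part in the choice. The 14 pan-myeloid genes on the list, among them C1qa, Tyrobp and Csf1r, summed to 118 and 150 UMIs per 10000 in Col1a1-low phagocyte spots of slices 1 and 2, and to 134 and 135 in fibrotic phagocyte spots. In the remaining spots with under 5 UMIs of Gpnmb plus Trem2 per 10000, called other spots, they summed to 25.2 and 13.7 where Col1a1 was low, and to 46.3 and 37.5 where it was 5 or more.

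Most Col1a1-rich tissue at 7 dpi was phagocyte-rich. Of the spots with at least 5 Col1a1 UMIs per 10000, 86.6% were phagocyte spots in slice 1 (97 of 112, exact 95% binomial interval 78.9% to 92.3%) and 86.7% in slice 2 (340 of 392, 83.0% to 89.9%). Of the spots with under 1, 25.4% (22.1% to 28.9%) and 30.7% (26.1% to 35.7%) were. The middle class lay between, at 61.0% and 51.9%. The intervals cover counting error only, and 2 slices are too few for a test. At 21 dpi 65.9% and 76.8% of Col1a1-rich spots and 5.29% and 1.55% of Col1a1-low spots were phagocyte spots. The area with slices at rest and 2 dpi held 86 Col1a1-low phagocyte spots and 0 fibrotic ones. All 86 lay in its slice 1 and were shallow, with a median of 1872.5 UMIs per spot, so that few marker UMIs met the threshold. With at least 5000 UMIs per spot 11 remained.

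**Figure D1:**
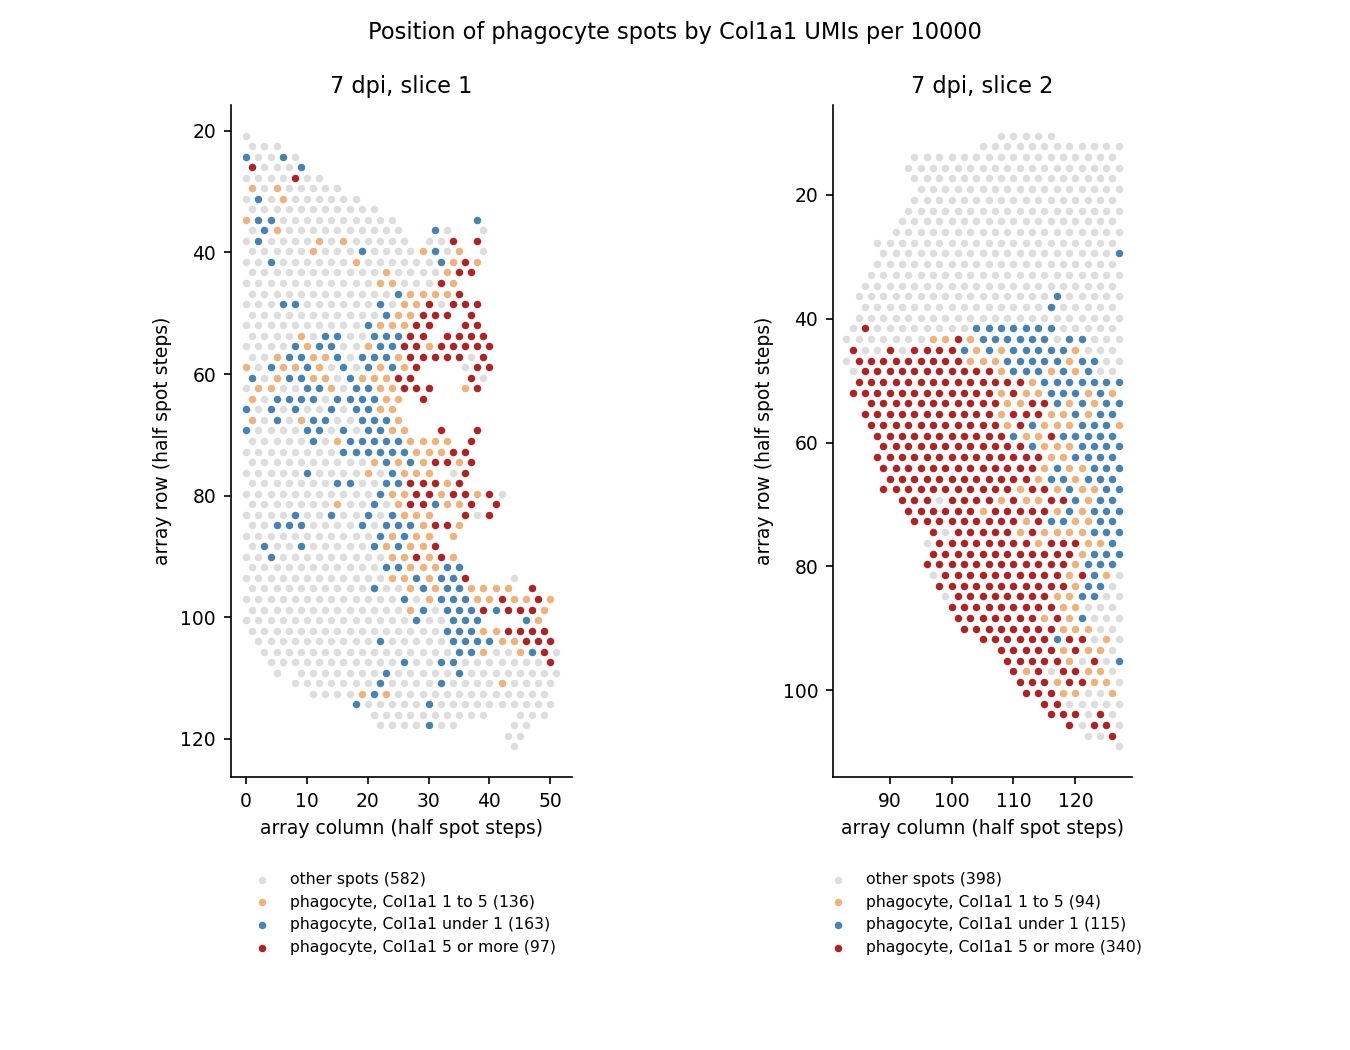
Array position of every tissue spot in the 2 slices at 7 dpi (array row and column), coloured by class, with the number of spots in the legend; other spots are all that did not qualify as phagocyte spots. The 340 fibrotic phagocyte spots of slice 2 form 1 field, while most of the 97 in slice 1 lie along the edge of the tissue.

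The 2 slices differed in where these spots lay. In slice 1, 70.1% of fibrotic phagocyte spots were edge spots, that is, had fewer than 6 tissue neighbours, against 9.20% of Col1a1-low ones. In slice 2 the shares were 11.5% and 15.7%. The depth differed as well, with medians of 5131 UMIs per spot in fibrotic and 15476 in Col1a1-low phagocyte spots of slice 1, and 8883 and 15834 in slice 2. Position and depth were varied in 3 alternatives, which left out edge spots, spots less than 3 rings from the edge, or spots with under 5000 UMIs. The first is given beside the results that lost calls under it. The second kept only 5 fibrotic phagocyte spots in slice 1 and is given beside the macrophage, interferon and matrix lists. The part of position and depth in the results was otherwise not tested.

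UMIs were added up by class within each slice, and the 4 sums were compared gene by gene with the slice as a block (edgeR quasi-likelihood test, Benjamini-Hochberg adjustment over 12638 genes, threshold 0.05). Log2 fold changes are given with their standard error (SE). The spread has 1 residual degree of freedom per gene and is shared across genes, so p-values measure the agreement of 2 slices. In fibrotic against Col1a1-low phagocyte spots, 784 genes (6.2% of those tested) were higher and 533 (4.22%) were lower, 10.4% together, and the median of all genes tested was 0.00. At an unadjusted p under 0.05 (edgeR) 19.7% were called. Of the 784, 781 were higher in both slices taken alone, and 531 of the 533 were lower in both, which a test with the slice as a block largely requires. In 429 of the higher (54.7%) and 382 of the lower genes (71.7%) the middle class lay between the other classes in both slices. Among genes not called, 57.7% had the same direction in both slices and 12.1% had the middle class between. Without edge spots 469 genes were higher and 269 lower, with 464 and 265 of the original calls made again. At least 3 rings from the edge 166 of 12130 genes were higher and 100 lower. Fewer calls in a list under these 2 alternatives thus go with fewer calls over all genes. DESeq2 called 271 higher and 125 lower, all among the original calls. In tissue spots, fewer cells of a type and less RNA per cell cannot be told apart.

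**Figure D2:**
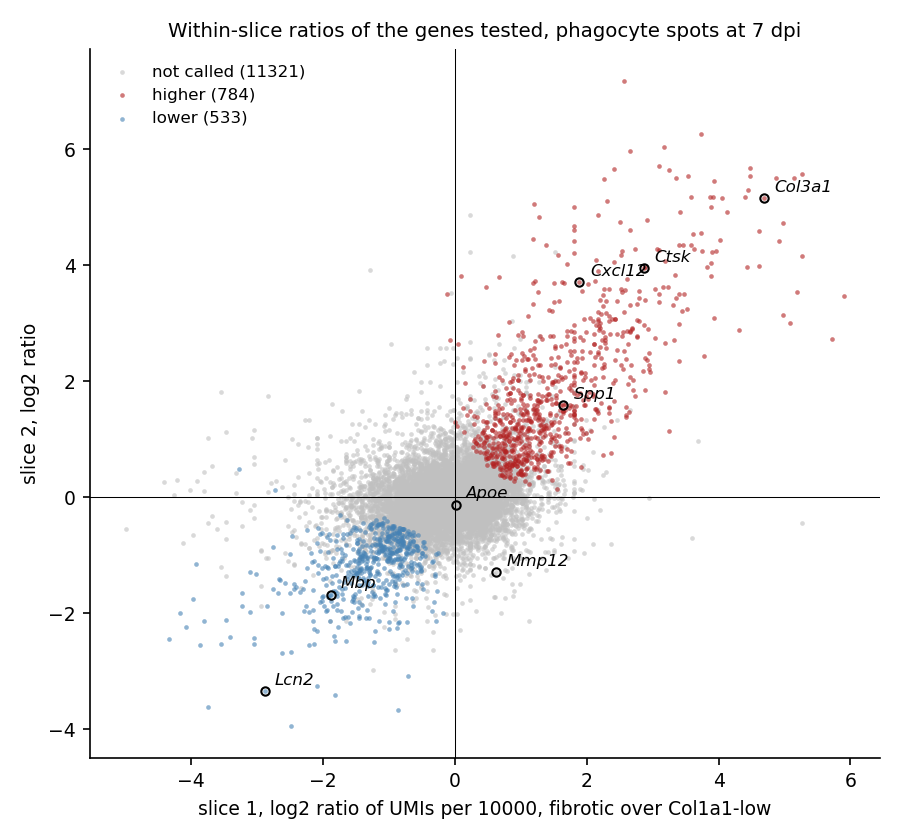
Log2 ratio of UMIs per 10000, fibrotic over Col1a1-low phagocyte spots, in slice 1 (horizontal axis) and slice 2 (vertical axis), 1 point per gene tested; red and blue mark the 784 higher and 533 lower genes, grey the rest. Nearly all called genes lie in the upper right or lower left, Apoe near the centre, and Mmp12 has opposite signs in the 2 slices.

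Osteopontin was the scar-associated gene with the most UMIs among those that rose. Spp1 (chr5:104435118-104441050, plus strand), a secreted phosphoprotein that binds integrins and CD44, stood at 48.1 UMIs per 10000 in Col1a1-low and 150.1 in fibrotic phagocyte spots of slice 1, and at 53.2 and 159.7 in slice 2. The middle class lay between, at 72.6 and 81.0. The log2 fold change was 1.66 (SE 0.24, adjusted p = 7.88e-06), and 1.61 without edge spots (adjusted p = 0.00117). Measured per 100 pan-myeloid UMIs, Spp1 went from 40.6 through 65.2 to 112.2 in slice 1 and from 35.6 through 68.6 to 118.3 in slice 2, so the order of the classes was the same after scaling to myeloid transcripts. By spot, the median of Spp1 in UMIs per 10000 was 19.998 and 46.3 in Col1a1-low and 88.6 and 91.8 in fibrotic phagocyte spots.

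Other genes described in scar- and lipid-associated macrophages did not move as a block. Of 15 tested, 7 rose, 0 fell and 8 did not pass, with a median log2 fold change of 0.57. Spots of both classes had to hold Gpnmb plus Trem2, which limits how far genes expressed with these 2 markers can differ. The median was 0.79 with a minimum of 3 UMIs of the 2, 0.27 with 10 and 0.21 with Gpnmb alone. The median ratio within a slice was 0.91 in slice 1 and 0.14 in slice 2. Ctsk (chr3:95499256-95509362, plus strand), a collagen-degrading cathepsin, rose from 0.117 to 0.863 UMIs per 10000 in slice 1 and from 0.0923 to 1.48 in slice 2 (log2 fold change 3.46, SE 0.26, adjusted p = 6.93e-11). Fabp4, a fatty acid carrier, rose from 0.125 to 0.67 and from 0.212 to 0.68 (2.05, SE 0.25, adjusted p = 8.38e-07). Both genes were low in absolute terms and close to their Col1a1-low level in the middle class. The change of Ctsk was close to the median of collagen and fibroblast genes (3.30), which follow the Col1a1 that chose the spots. No cell type was assigned to the genes of this list. Lgals3 (galectin-3, 0.72), Anxa2 (an annexin, 0.81), Cd36 (a scavenger receptor for lipid, 0.77) and Ctsl (a lysosomal cathepsin, 0.66) rose by less, and none of these 4 passed without edge spots (adjusted p from 0.0825 for Anxa2 to 0.685 for Cd36), where 3 of the 15 genes stayed higher. At least 3 rings from the edge 2 of the 15 were higher. DESeq2 called 3 of the 15, all higher.

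The most abundant lipid-handling members did not pass the test. Apoe, the main lipid carrier of the brain, stood at 138 UMIs per 10000 in Col1a1-low and 140 in fibrotic phagocyte spots of slice 1, and at 163 and 149 in slice 2 (log2 fold change -0.01, SE 0.24, adjusted p = 0.988). Fabp5 (0.57, adjusted p = 0.0823), the lipid droplet protein Plin2 (0.37), Cd63 (0.30), Vat1 (0.21), lipoprotein lipase Lpl (-0.05) and Cd9 (-0.19) did not pass. Mmp12, macrophage elastase, went from 2.98 to 4.58 in slice 1 and from 8.73 to 3.57 in slice 2, so that its slices had opposite signs (-0.33, SE 0.28, adjusted p = 0.613). The 19 lipid uptake, storage and efflux genes had Cd36 as the only higher and 0 lower members, with a median of 0.15. Of 27 lysosome genes, 2 rose: Ctsl, and Atp6v0d2, a proton pump subunit (1.88, SE 0.26, adjusted p = 6.26e-06). Without edge spots Atp6v0d2 was the only one of the 27 and no lipid gene was called. The abundant Ctsd (-0.11) and Ctsb (0.23) were among the 25 that did not pass. In slices 1 and 2 the median ratio within a slice was 0.50 and -0.24 for the lipid list. For the lysosome list it was 0.29 and -0.01.

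**Figure D3:**
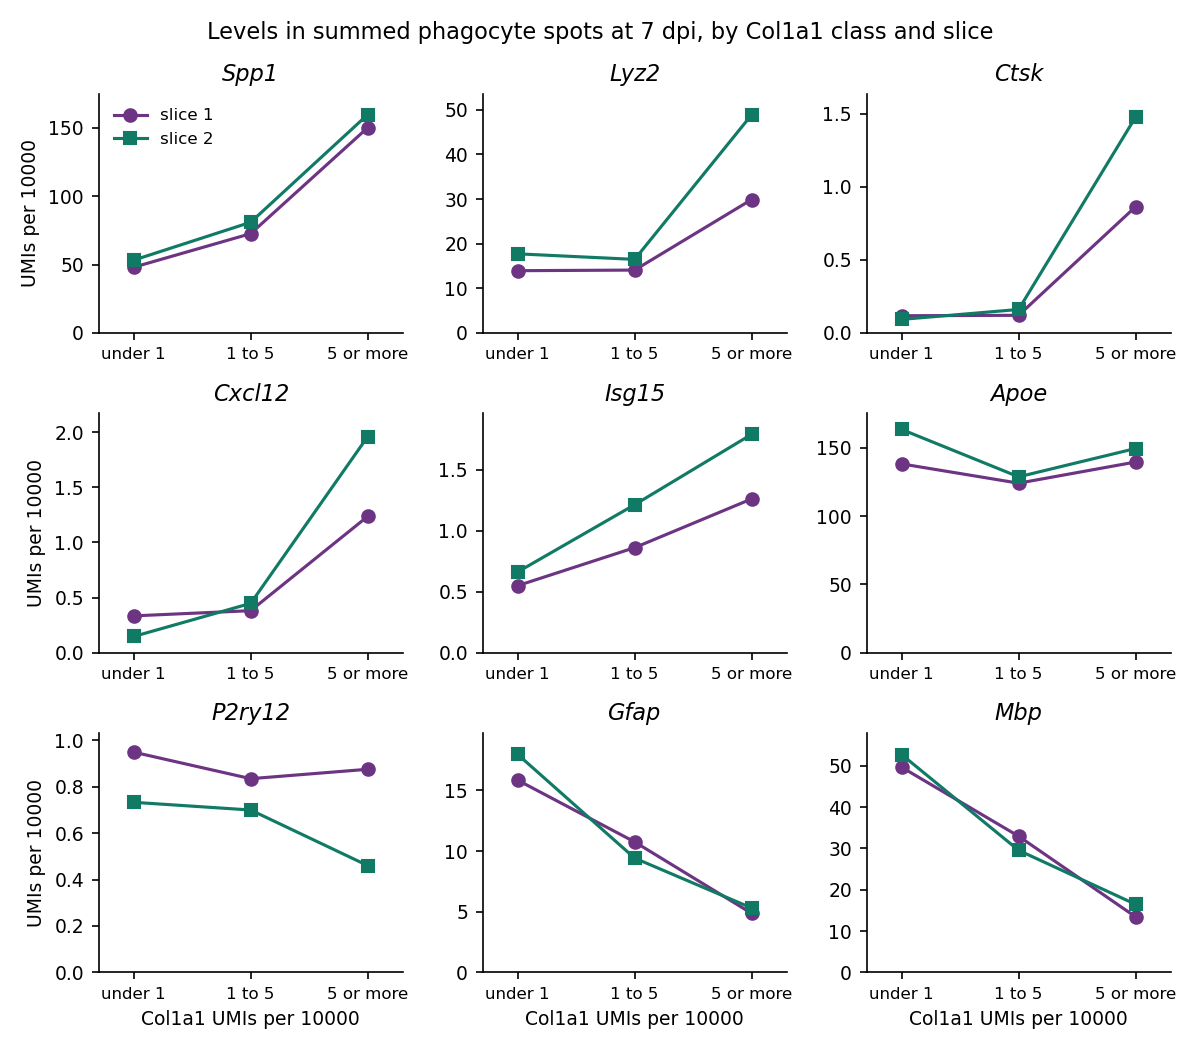
UMIs per 10000 of 9 genes in the summed phagocyte spots of each Col1a1 class (horizontal axis, Col1a1 UMIs per 10000) and slice (circles, slice 1; squares, slice 2), without error bars since each point is 1 sum. Spp1 rises at each step in both slices, Lyz2 and Ctsk rise at the last step, Apoe shows no order, and Gfap and Mbp fall at each step.

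Most genes listed for monocyte-derived macrophages were higher in fibrotic phagocyte spots. Of 19 monocyte-derived genes, 13 rose and 0 fell (median 1.35). Without edge spots 10 of 18 rose, and at least 3 rings from the edge 5 of 17. Lyz2 (chr10:117277331-117282321, minus strand), lysozyme of myeloid cells, rose from 13.9 to 29.9 UMIs per 10000 in slice 1 and from 17.7 to 48.9 in slice 2 (1.33, SE 0.21, adjusted p = 3.73e-05). Its middle class, at 14.1 and 16.5, stood at the Col1a1-low level. Plac8, a gene of circulating monocytes, rose from 0.0696 to 0.631 and from 0.038 to 0.505 (3.44). Thbs1, a matrix glycoprotein that can activate latent TGF-beta (2.99), Tgfbi (1.81) and Ly6c2 (2.78) rose as well. Ly6c2 has a near-identical copy, Ly6c1, so its reads may be split uncertainly. Fibroblasts and endothelial cells also express several genes of this list, such as Thbs1, Tgfbi and Vim, and no cell type was assigned. Of 14 pan-myeloid genes 0 passed in either direction (edgeR quasi-likelihood test, median 0.10). The nearest to the threshold was the oxidase subunit Cyba (0.55, adjusted p = 0.0644). Spots of both classes were chosen by myeloid markers, so this list is no independent contrast. With a minimum of 3 UMIs of Gpnmb plus Trem2 per 10000, 3 rose (median 0.44). With 10, 2 fell (median -0.20), and with Gpnmb alone 3 fell. The median ratio within a slice was 0.27 in slice 1 and -0.13 in slice 2. In other spots the medians of the monocyte-derived and pan-myeloid lists were larger, at 2.80 and 1.14.

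Border-associated macrophages normally live in the meninges and around vessels. Of 12 listed genes, 7 were tested, 5 rose and 0 fell (median 0.66). Mrc1, the mannose receptor, rose from 0.044 to 0.155 UMIs per 10000 in slice 1 and from 0.0489 to 0.259 in slice 2 (2.18, SE 0.40, adjusted p = 0.000307). F13a1 (1.64), Folr2 (1.11), Maf (0.65) and Pf4 (0.66) were the others, and only Mrc1 and Folr2 stayed higher without edge spots (adjusted p = 0.0569 for F13a1 and 0.0765 for Maf). At least 3 rings from the edge 0 of 6 passed (edgeR). DESeq2 called 1 of the 7. The defining markers Lyve1 and Cd163 had too few UMIs to test.

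Homeostatic microglia genes were on the lower side, mostly short of the threshold. Of 16 tested, 0 rose and 1 fell, with a median of -0.35. The gene that fell was Gpr34, a lysophospholipid receptor, from 1.90 to 1.38 UMIs per 10000 in slice 1 and from 1.45 to 0.848 in slice 2 (-0.58, SE 0.19, adjusted p = 0.0448). It did not pass without edge spots (adjusted p = 0.215). P2ry12, the purinergic receptor that steers microglial processes, went from 0.949 to 0.876 and from 0.733 to 0.460 (-0.37, adjusted p = 0.348), and Tmem119 (-0.28), Cx3cr1 (-0.30), Sall1 (-0.37), Csf1r (-0.33), Siglech (-0.67), P2ry13 (-0.69) and Cst3 (-0.56) did not pass either. Mef2c (0.21) was the only member with a positive value. Their number depended on how phagocyte spots were chosen. With at least 10 UMIs of Gpnmb plus Trem2 per 10000, which keeps the richest spots of both classes, 9 of 16 fell, among them Cx3cr1 (-0.68), Tmem119 (-0.57) and Csf1r (-0.59). With Gpnmb alone 10 fell. Over all genes 421 of 11500 fell with at least 10 UMIs and 507 of 11285 with Gpnmb alone. Other choices gave fewer: 0 fell with at least 3 UMIs of Gpnmb plus Trem2 (median -0.18) or with Trem2 alone (median -0.28), and 1 of 15 fell and 1 rose with 5 to 15 UMIs. With at least 10 UMIs of Gpnmb plus Trem2 the scar- and lipid-associated list had 3 higher genes (Spp1, Fabp4 and Ctsk) and 2 lower ones (Cd9 and Mmp12).

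Disease-associated microglia genes, which microglia switch on near dying cells, had 4 of 18 higher and 0 lower (median 0.12). These were Cybb, the phagocyte oxidase (1.11, SE 0.21, adjusted p = 0.000319), Itgax, an integrin (0.96), Igf1 (0.74) and Csf1 (0.69), of which Cybb and Igf1 did not pass without edge spots (adjusted p = 0.117 and 0.053), and 0 of 18 passed at least 3 rings from the edge (edgeR). Among 20 phagocytosis receptors and bridging molecules, Cd36 rose while the receptors Tyro3 (-1.28) and Megf10 (-0.96) fell, and the call of each was lost without edge spots. Astrocytes and neurons also express Tyro3 and Megf10.

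**Figure D4:**
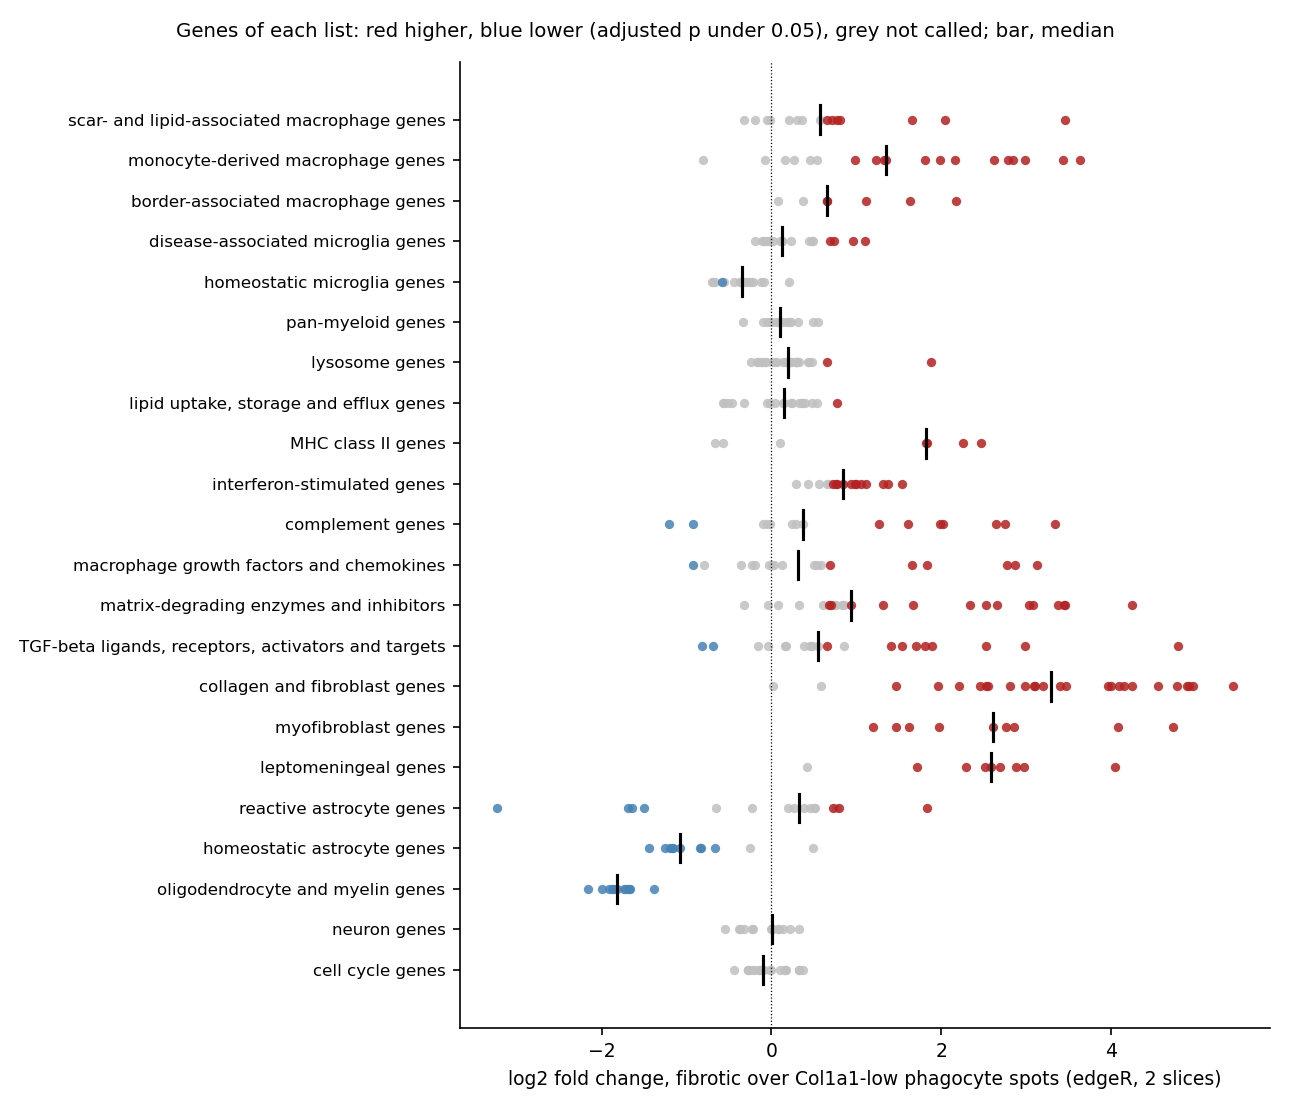
Log2 fold change of every tested gene of 22 lists, fibrotic over Col1a1-low phagocyte spots (edgeR, 2 slices), 1 point per gene; red and blue mark genes called higher and lower, grey those not called, and the bar the median. Collagen, myofibroblast and leptomeningeal genes lie far to the right, myelin genes all to the left, and pan-myeloid, lysosome, neuron and cell cycle genes around 0.

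Of 18 macrophage growth factors and chemokines, 6 rose in fibrotic phagocyte spots, 1 fell and 11 did not pass (median 0.31). The rises were in Ccl2, Ccl7, Ccl8, Cxcl12, Ccl5 and Csf1, and these stayed higher without edge spots. Ccl2, the ligand of Ccr2, rose from 0.264 to 0.708 UMIs per 10000 in slice 1 and from 0.196 to 0.683 in slice 2 (1.66, SE 0.23, adjusted p = 5.43e-06). Ccl7, another ligand of Ccr2, rose from 0.0623 to 0.438 and from 0.0272 to 0.322 (3.13). Ccl8 rose from 0.0696 to 0.322 and from 0.0489 to 0.547 (2.87). The receptor Ccr2 itself had only 77 UMIs over the 4 sums, and rose from 0.0293 to 0.309 and from 0.00543 to 0.115 (3.64, SE 0.53, adjusted p = 1.15e-05; a gene chosen after its values were seen).

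Cxcl12, made by fibroblasts and endothelium, rose from 0.334 to 1.24 UMIs per 10000 in slice 1 and from 0.147 to 1.96 in slice 2 (2.77, SE 0.27, adjusted p = 1.16e-08). Ccl5, which attracts T cells and monocytes, rose from 0.242 to 0.425 and from 0.0652 to 0.549 (1.83), a larger ratio in slice 2. Csf1, a growth factor that macrophages need, rose from 1.11 to 1.42 and from 0.994 to 1.85 (0.69, SE 0.19, adjusted p = 0.0169). The second ligand of its receptor, Il34, did not pass (0.59, adjusted p = 0.484). Ccl12 (0.00), Ccl3 (0.12), Ccl4 (-0.20), Cx3cl1 (-0.23), Cxcl14 (-0.03), Cxcl16 (0.54, adjusted p = 0.0798), Cxcl10 (0.50), Cxcl5 (-0.80), Mif (-0.36) and Gas6 (0.03) did not pass either, and Csf2, Ccl11, Cxcl1 and Cxcl2 were too low to test. The member that fell was C3, the central complement protein (-0.92, adjusted p = 0.0193), whose call was lost without edge spots (adjusted p = 0.3).

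Of 11 macrophage-derived growth factors and cytokines, 3 rose and 0 fell (median 0.18). Il1rn, the antagonist of interleukin-1, rose from 0.066 to 0.631 UMIs per 10000 in slice 1 and from 0.0706 to 0.90 in slice 2 (3.50, SE 0.28, adjusted p = 2.21e-10). Igf1 went from 2.17 to 4.33 and from 3.20 to 4.24. Pdgfc, a growth factor of fibroblasts, went from 0.114 to 0.103 in slice 1 and from 0.038 to 0.264 in slice 2 (1.43, adjusted p = 0.034), so that its call rests on slice 2, and it did not pass without edge spots (adjusted p = 0.0806). Of 8 osteopontin receptors only Itga4 rose (1.23, adjusted p = 0.0345), a call that was also lost, while Itgb3 (1.02, adjusted p = 0.0715), Itgb1 (0.46), Itga5 (0.49) and Itgb5 (-0.05) did not pass.

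Of 17 interferon-stimulated genes tested, 12 rose and 0 fell (median 0.84). Without edge spots 10 rose, and at least 3 rings from the edge 1 did (median 0.63). Isg15, a ubiquitin-like modifier, stood at 0.55, 0.862 and 1.26 UMIs per 10000 in the Col1a1-low, middle and fibrotic class of slice 1 and at 0.663, 1.21 and 1.79 in slice 2 (1.37, SE 0.19, adjusted p = 7.5e-06). Irf7, the transcription factor of the type I interferon response, rose from 0.792 to 1.21 and from 0.424 to 2.13 (1.53). Ifit1 rose from 0.279 to 0.708 and from 0.326 to 0.751 (1.31), and Ifit3 from 0.488 to 0.914 and from 0.494 to 1.15 (1.12). Bst2 (0.84) and Ifi27l2a (0.76) were the members with the most UMIs, and both rose. Among phagocyte spots with 5 to 15 UMIs of Gpnmb plus Trem2 per 10000 only 5 of the 17 rose, with Isg15 at 0.60 (adjusted p = 0.338). Over all genes 400 of 9876 rose there.

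Promoters of these genes were searched for the letters of the interferon-stimulated response element, GAAA followed by any 2 bases and GAAA again, on either strand (TTTC in place of GAAA on the other), from 250 bases before to 50 after the start of the gene in RefSeq (GRCm38.p6). Of the 17 genes, 12 had a promoter in the table and 8 of these held a match, 6 of the 9 that rose and 2 of the 3 that did not. Of all 32851 promoters 3.44% did. Matches are shown for the 3 genes with the lowest p among those with matches in their promoter, in capitals and on the strand of the gene.
Isg15, chr4:156200769-156201068, minus strand: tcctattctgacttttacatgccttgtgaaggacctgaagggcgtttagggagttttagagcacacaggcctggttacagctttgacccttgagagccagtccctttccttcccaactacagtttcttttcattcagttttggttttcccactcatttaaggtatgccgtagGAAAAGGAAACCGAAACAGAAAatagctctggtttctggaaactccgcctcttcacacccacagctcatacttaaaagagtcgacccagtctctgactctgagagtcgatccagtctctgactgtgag
Ifit1, chr19:34640639-34640938, plus strand: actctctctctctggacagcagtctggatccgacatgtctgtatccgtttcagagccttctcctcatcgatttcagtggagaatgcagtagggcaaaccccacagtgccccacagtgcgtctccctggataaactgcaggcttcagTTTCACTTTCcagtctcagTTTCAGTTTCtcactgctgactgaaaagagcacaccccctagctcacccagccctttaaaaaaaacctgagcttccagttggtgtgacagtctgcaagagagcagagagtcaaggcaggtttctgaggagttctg
Ifit3, chr19:34583279-34583578, plus strand: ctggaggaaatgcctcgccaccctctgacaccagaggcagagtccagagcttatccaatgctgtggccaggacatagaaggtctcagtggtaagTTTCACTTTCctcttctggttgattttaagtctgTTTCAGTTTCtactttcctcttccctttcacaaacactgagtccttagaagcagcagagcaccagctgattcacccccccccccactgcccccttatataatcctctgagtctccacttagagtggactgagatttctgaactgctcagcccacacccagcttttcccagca
Isg15 held 3 overlapping matches and Ifit1 and Ifit3 held 2 each. A match describes the letters and says nothing of whether a factor was bound there.

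Genes of antigen presentation to CD4+ T cells were higher as well. Of 7 MHC class II genes 4 rose and 0 fell (median 1.82), and the same number rose without edge spots. H2-Aa rose from 0.11 to 0.476 UMIs per 10000 in slice 1 and from 0.147 to 0.937 in slice 2 (2.47, SE 0.26, adjusted p = 3.69e-08). H2-Ab1 (1.83), H2-Eb1 (2.26) and the invariant chain Cd74 (1.82) rose too. T cell genes stayed near 0, with 36 and 18 UMIs summed over 9 genes in Col1a1-low and 7 and 73 in fibrotic phagocyte spots, and Cd3e was at 0. Of 15 complement genes 7 rose and 2 fell (median 0.38). The rising ones included the inhibitor Serping1 (1.98), C2 (3.34) and properdin Cfp (2.02), while C1qa (-0.02) and C1qb (-0.10), which begin the classical pathway, did not pass. Besides C3, C4b fell (-1.20), with reads that its near-identical copy C4a could share. Without edge spots 6 complement genes rose and 1 fell.

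Collagen and fibroblast genes rise and fall with the Col1a1 that chose the spots, so their counts are a description. Of 26 tested, 24 were higher and 0 lower (median 3.30), with Pdgfra (0.58) and Thy1 (0.03) as the exceptions. Col3a1 stood at 0.773 and 0.978 UMIs per 10000 in Col1a1-low and at 19.9 and 34.9 in fibrotic phagocyte spots (4.97, SE 0.24, adjusted p = 2.93e-14). Col1a2 (4.92), elastin, Eln (4.90), the collagen cross-linking oxidase Lox (5.44) and Sparc (1.47), which binds collagen, followed. All 9 myofibroblast genes tested were higher (median 2.61), and 8 of them without edge spots. The matrix protein Postn rose from 0.154 to 1.91 and from 0.0978 to 2.33 (4.08). Cthrc1, a secreted protein of activated fibroblasts, rose from 0.191 to 1.24 and from 0.147 to 1.12 (2.85), and Acta2 (2.76), Tpm2 (2.61) and fibronectin, Fn1 (1.63), rose too.

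Of 23 enzymes that cut the matrix and their inhibitors, 14 rose, 0 fell and 9 did not pass (median 0.94). Without edge spots 11 rose, and at least 3 rings from the edge 6 of 22. The collagenase Mmp13 rose from 0.176 to 1.80 UMIs per 10000 in slice 1 and from 0.304 to 3.32 in slice 2 (3.45, SE 0.21, adjusted p = 1.56e-12). Mmp14, a membrane-bound collagenase, rose from 0.172 to 1.71 and from 0.147 to 1.49 (3.38). The inhibitor Timp1 rose from 0.557 to 2.72 and from 0.521 to 3.33 (2.53), and Timp2 by less (0.67). The letters of an AP-1 site, TGANTCA on either strand, were in 4 of the 15 promoters of this list that the table holds, 2 of 10 from genes that rose and 2 of 5 from the rest, and in 7.81% of all promoters. Of 21 genes of the TGF-beta pathway, 9 rose and 2 fell (median 0.55), and 5 rose without edge spots. Besides Thbs1 and Tgfbi, the latent TGF-beta binding protein Ltbp2 (4.79) and the target gene Ccn2 (1.41; adjusted p = 0.0504 without edge spots) rose. The integrin subunit Itgb8 and the inhibitor Smad7 were the 2 that fell, chosen after their values were seen, at -0.69 and -0.82, and both calls were lost without edge spots. The ligand Tgfb1, also so chosen, did not pass (0.16, adjusted p = 0.782).

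Myelin genes and most homeostatic astrocyte genes were lower in fibrotic phagocyte spots, and reactive astrocyte genes were mixed. All 11 oligodendrocyte and myelin genes fell (median -1.82), also without edge spots, from 146 UMIs per 10000 summed over the list to 39.1 in slice 1 and from 136 to 39.5 in slice 2. Mbp, myelin basic protein, fell from 49.7 to 13.4 and from 52.7 to 16.5 (-1.73, SE 0.22, adjusted p = 9.13e-07). Mag (-1.99), Mog (-1.87), Mal (-1.86) and Ermn (-2.16) fell too. Of 7 oligodendrocyte precursor genes, 5 fell, such as the transcription factors Olig1 (-1.43) and Sox10 (-1.43), and 1, the proteoglycan Vcan, rose (1.21; chosen after its values were seen).

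Of 11 homeostatic astrocyte genes, 9 fell and 0 rose (median -1.08), and 7 fell without edge spots. The glutamate transporter Slc1a3 fell from 5.21 to 1.89 UMIs per 10000 in slice 1 and from 4.58 to 1.61 in slice 2 (-1.44). The water channel Aqp4 (-1.25), Aldoc (-1.16), Aldh1l1 (-1.20) and Slc1a2 (-0.83) fell too. Of the 16 reactive astrocyte genes 4 fell and 3 rose (median 0.33), and without edge spots 4 fell and 1 rose. Gfap, the intermediate filament of the glial scar, fell from 15.8 through 10.8 to 4.87 and from 18.0 through 9.42 to 5.31 (-1.69, SE 0.20, adjusted p = 3.76e-07). Lcn2 (chr2:32384633-32388252, minus strand), lipocalin 2, fell from 0.902 to 0.116 and from 2.21 to 0.217 (-3.23, SE 0.24, adjusted p = 5.3e-11). S1pr3 (-1.64) fell, Emp1 (1.84) rose, and Vim, which many cell types share, did not pass (0.26). All 14 neuron genes missed the threshold in both directions (edgeR quasi-likelihood test; median 0.00), with Snap25 at -0.00 and Map2 at -0.55 (adjusted p = 0.0728). The neuron list summed to 28.0 in Col1a1-low and 18.8 in fibrotic phagocyte spots of slice 1, and to 19.985 and 24.6 in slice 2. With Gpnmb alone as the choice of phagocyte spots, 6 neuron genes rose, and over all genes 729 of 11285 did.

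Markers of further cell types were counted in the same way. Of 9 leptomeningeal genes 8 rose (median 2.59; 7 of 8 without edge spots), from 6.25 to 10.3 UMIs per 10000 summed over the list in slice 1 and from 5.03 to 14.4 in slice 2, with Col18a1 (2.59), Foxc1 (2.98), Igf2 (2.69) and Crabp2 (4.05) among them. The list's sum in other spots with 5 or more Col1a1 UMIs per 10000 was 124 and 109. Of 10 endothelial genes 3 rose and 2 fell, with the junction protein Cdh5 at 1.64 and the lipid transporter Mfsd2a at -1.81. Without edge spots 1 rose and 0 fell. Of 8 pericyte genes 2 rose, Vtn (0.88) and Ndufa4l2 (1.17), the second of which did not pass without edge spots (adjusted p = 0.106). Of 4 neutrophil genes tested S100a8 rose (2.91, 67 UMIs in all), while Ly6g was at 0 and the list summed to 0.491 and 0.576 in Col1a1-low and 0.901 and 0.623 in fibrotic phagocyte spots. Of 4 red blood cell genes Hba-a1 (1.22) and Hba-a2 (1.35) were called, near-identical copies whose list sum went from 2.33 to 2.05 in slice 1 and from 0.592 to 2.87 in slice 2. Neither passed without edge spots (adjusted p = 0.0618 and 0.509). The 2 B cell and plasma cell genes and the 1 T cell gene tested did not pass. The part of these cells in the other results was not tested.

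Genes of cell state are counted beside the share over all genes, of which 10.4% were called in either direction. Of 20 cell cycle genes 0 passed (edgeR quasi-likelihood test; median -0.10). Of 15 hypoxia and glycolysis genes only Ndrg1 fell (-1.38), a gene that oligodendrocytes also express, while Ldha (-0.06) and Pgk1 (-0.42) did not pass. Of 10 iron and haem genes Trf fell (-1.55), transferrin being another oligodendrocyte product, and the iron exporter Slc40a1 was just called (0.84, adjusted p = 0.0497; 0.0894 without edge spots). The ferritin genes Fth1 (-0.28) and Ftl1 (0.45) did not pass.

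Among all genes with at least 50 UMIs over the 4 sums, the largest rises included several developmental transcription factors, with few UMIs each. The genes named here with few UMIs met that minimum almost wholly through the class where they were higher. Fibrotic spots were chosen by a collagen gene, so the ranks are a description. Alx4 had 1 UMI in the Col1a1-low and 62 in the fibrotic sums, Prdm6 1 and 57, and Foxc2 2 and 88. The smooth muscle actin Actg2 had 1 and 59 and the protease inhibitor Tfpi2 had 1 and 51. Lox (14 and 699), Fam180a (4 and 132), Col3a1 and Col1a2 were also among them. Without edge spots Alx4, Tfpi2 and Cdhr4, named next, had too few UMIs to test. The largest falls, beside Lcn2, were in Ccdc153 (96 UMIs in the Col1a1-low and 5 in the fibrotic sums), Igfbpl1 (47 and 3), Gldn (51 and 7), Cdhr4 (49 and 5), Tgm1 (138 and 19), Klk6 (347 and 66), the gap junction protein Gjb1 (149 and 29), Chil1 (153 and 25) and the pentraxin Ptx3 (118 and 18). Klk6 and Gjb1 are expressed by oligodendrocytes, and Chil1 by astrocytes.

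The Col1a1-low phagocyte spots were themselves uneven with distance from fibrosis. Distance was taken to the nearest spot with at least 5 Col1a1 UMIs per 10000, whether a phagocyte or an other spot. In slice 1, 20 of the Col1a1-low phagocyte spots touched such a spot and 75 lay at least 5 steps away, and in slice 2, 19 and 31. The scar- and lipid-associated list summed to 469 UMIs per 10000 in the touching spots of slice 1, 304 in those at 2 to 4 steps and 153 in those at 5 or more, and to 364, 340 and 222 in slice 2. Pan-myeloid genes summed to 187, 163 and 66.0 in the same spots of slice 1 and to 157, 168 and 109.9 in slice 2. Lysosome genes summed to 573, 451 and 205, and to 460.1, 466 and 299.6, so that both lists were lowest in the farthest spots. Homeostatic microglia genes summed to 118, 118 and 91.5 in slice 1. In slice 2 they were highest in the farthest spots, at 101, 109 and 123. The monocyte-derived list summed to 51.1, 48.3 and 25.4 in slice 1, and to 39.4, 45.7 and 37.5 in slice 2, where no order was seen. Collagen and fibroblast genes changed less, from 20.8 through 16.0 to 15.7 and from 16.5 through 14.8 to 15.2. Myelin genes ran the other way, at 46.1, 92.9 and 212 in slice 1 and 66.8, 102 and 229 in slice 2. In fibrotic phagocyte spots the scar- and lipid-associated list summed to 386 and 401, below the touching Col1a1-low spots in slice 1 and above them in slice 2. Pan-myeloid genes (134 and 135) and lysosome genes (407 and 367) were below the touching spots in both slices. These sums are given without a test, and those by distance come from few spots. The markers that chose the spots, Gpnmb plus Trem2, also fell with distance, from 27.2 to 9.62 and from 42.6 to 15.7.

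Whether the contrast between Col1a1 classes differed between phagocyte and other spots was tested as a difference of effects. The same 2 Col1a1 classes were formed among other spots at 7 dpi, 805 in all. Only 15 and 52 of these were fibrotic, 60% and 63.5% of them at the tissue edge. In these fibrotic other spots leptomeningeal genes summed to 124 and 109 UMIs per 10000, against 10.3 and 14.4 in fibrotic phagocyte spots. The area with slices at rest and 2 dpi held 21 and 3 other spots with as much Col1a1. Border tissue and fibrosis cannot be told apart in such spots. Fibrotic against Col1a1-low, 8.05% of 12639 genes were higher and 6.02% lower in other spots. Several list medians there exceeded those in phagocyte spots: monocyte-derived genes 2.80 against 1.35, border-associated 3.64 against 0.66, scar- and lipid-associated 1.51 against 0.57. MHC class II genes stood at 3.92 against 1.82, interferon-stimulated at 1.67 against 0.84 and pan-myeloid at 1.14 against 0.10. Macrophage growth factors and chemokines stood at 1.55 against 0.31 and matrix enzymes at 2.76 against 0.94. Complement genes stood at 1.63 against 0.38 and TGF-beta genes at 1.76 against 0.55. Leaving aside the pan-myeloid list, rises of these lists with Col1a1 were thus not particular to phagocyte spots. The Col1a1-rich other spots were, however, also rich in leptomeningeal genes. Homeostatic microglia genes had opposite signs, at 0.56 in other and -0.35 in phagocyte spots. Neuron genes ran the other way, at -0.97 against 0.00. Of 13385 genes, 14 (0.105%) had a larger and 124 (0.926%) a smaller log2 fold change in phagocyte spots, 1.03% together. On simulated counts this test recovered 2% of 2-fold and 53% of 4-fold changes, so the low count does not show that effects were alike. Ptgds, the prostaglandin D synthase of the leptomeninges, stood at 9.02 UMIs per 10000 in Col1a1-low and 110.5 in fibrotic other spots of slice 1 and at 8.32 and 96.5 in slice 2, a log2 fold change of 3.48. In phagocyte spots it stood at 5.05 and 5.12, and at 4.20 and 6.90, a log2 fold change of 0.42. The difference was -3.03 (SE 0.30, adjusted p = 7.7e-05).

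The other 4 genes named with smaller effects in phagocyte spots passed at an adjusted p of 0.00143 each. Gpx3, an extracellular glutathione peroxidase, changed by 1.35 in phagocyte and 4.96 in other spots. Igfbp2, a binding protein of insulin-like growth factors, fell in phagocyte spots (-0.70; adjusted p = 0.0577 without edge spots) and rose in other spots (2.77). The protease inhibitor A2m fell in the first (-1.50) and rose in the second (1.60). Igf1 rose in both (0.74 and 3.42), from 2.17 to 4.33 and from 3.20 to 4.24 UMIs per 10000 in phagocyte spots, and from 0.225 to 2.42 and from 0.177 to 2.06 in other spots.

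In the opposite direction stood neuronal genes that fell in other spots and less or not in phagocyte spots: the calcium sensor Hpca (-0.61 and -2.42), the granin Chgb (-0.02 and -2.05), Necap1 (0.38 and -1.32), the pentraxin Nptx1 (-0.23 and -1.74) and Spink8, whose value in other spots rests on 1 UMI in the fibrotic sums. Hpca stood at 1.43 and 2.15 UMIs per 10000 in Col1a1-low phagocyte spots of slices 1 and 2, against 4.28 and 6.63 in Col1a1-low other spots. In fibrotic spots it stood at 0.824 and 1.46, against 0.997 and 1.21. Phagocyte and other spots thus differed more where Col1a1 was low than in fibrotic tissue, as they did in Chgb, Necap1 and Nptx1. Without edge spots only 6 and 19 fibrotic other spots remained, the former with 17811 UMIs in all. There 15 genes differed, 9 of the original 138 among them, and of the 10 genes named Igfbp2 (-2.06, adjusted p = 0.0134) and Gpx3 (-2.57, adjusted p = 0.000109) passed. The other 8 kept their sign, with Ptgds at -1.65 (adjusted p = 0.107), Hpca at 1.17 (0.817) and Igf1 at -1.24 (0.899).

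At 21 dpi the comparison was repeated on other slices, whose spots were chosen in the same way by their own Col1a1, Gpnmb and Trem2 UMIs. The overlap of calls therefore includes genes that follow the Col1a1 choice at both times. At 21 dpi 23 of 26 collagen and fibroblast genes were higher. The WT slices held 268 fibrotic phagocyte spots but only 50 Col1a1-low ones, 44 in slice 1 and 6 in slice 2. Of 11384 genes 788 (6.92%) were higher and 559 (4.91%) lower. Of the genes higher at 7 dpi, 467 were also higher at 21 dpi, 59.6% of the calls at 7 dpi and 59.3% of those at 21 dpi, and 1 was lower. Of the genes lower at 7 dpi, 243 were also lower, 45.6% and 43.5%, and 1 was higher. Spp1 rose by 1.63 (adjusted p = 9.12e-07), close to its 1.66 at 7 dpi. The scar- and lipid-associated list had 12 of 15 genes higher (median 1.57), against 7 at 7 dpi, with Mmp12 (4.43), Ctsk (4.12), Cd36 (3.34) and Lgals3 (2.08) among them, the lysosome list 11 of 27 (median 0.64) and the lipid list 9 of 19 (median 1.04). The classes also differed more in phagocyte transcripts at 21 dpi, where Gpnmb, which helped choose the spots, stood at 5.08 in Col1a1-low and 23.8 in fibrotic phagocyte spots of slice 1 and at 6.78 and 15.8 in slice 2, and where 2 of 14 pan-myeloid genes were higher (median 0.53). The myofibroblast list had 3 of 8 (median 1.38), the interferon list 7 of 17 (median 1.20) and the chemokine list 7 of 17 higher and 1 lower (median 0.02).

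The difference between the time points was tested gene by gene, with 23 of 12906 genes (0.178%) larger at 7 dpi, 37 (0.287%) larger at 21 dpi and 0.465% in all. On simulated counts this test recovered 4% of 2-fold and 43% of 4-fold changes, so here too a low count does not show alike effects. DESeq2 called 2 genes, and edgeR without the slice as a block called 0, with 663 at an unadjusted p under 0.05. Mmp12 went from 0.300 to 7.16 and from 0.289 to 2.09 UMIs per 10000 at 21 dpi, and its effect at 7 dpi was smaller by 4.77 on the log2 scale (SE 0.43, adjusted p = 1.09e-24). Adam8, a metalloprotease of myeloid cells (0.33 at 7 dpi and 3.90 at 21 dpi), and Mfge8, a bridging molecule for the uptake of dying cells (-0.36 and 2.33), differed in the same direction. Lcn2 and Chil1, which fell at 7 dpi, were at 0.44 and 0.49 at 21 dpi, where the slices had opposite signs (Lcn2 went from 16.9 to 11.3 in slice 1 and from 2.02 to 7.79 in slice 2). Postn had the larger rise at 7 dpi (4.08 and 1.53). The Col1a1-low sums at 21 dpi held 699286 and 69281 UMIs in slices 1 and 2, where Adam8 stood at 0.0286 and 0.144 UMIs per 10000. The effect of Adam8 at 21 dpi thus rests on few UMIs. So do the slice 2 values of Mmp12, Chil1 and Postn, at 0.289, 0.433 and 0.433 in the Col1a1-low spots.

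Lag3 rose at 7 dpi (1.07) and fell at 21 dpi (-1.90). The neuronal genes Arpp21 (0.02 and -2.09) and Scn4b (0.21 and -2.95) did not pass at 7 dpi and fell at 21 dpi. The difference passed for each. The Col1a1-low sum of slice 2 at 21 dpi held 6 spots and 69281 UMIs. Lag3, Arpp21 and Scn4b stood there at 1.15, 1.30 and 0.289 UMIs per 10000, so these slice 2 values also rest on few UMIs. All 9 genes named passed without edge spots. Genes of the X and Y chromosomes, chosen after their values were seen, differed with the time point: the sums of phagocyte spots held 457 and 715 UMIs of Xist and 0 of Ddx3y at 7 dpi, and 1 and 1 of Xist and 233 and 225 of Ddx3y at 21 dpi. Time point, capture area and sex cannot be told apart.

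**Figure D5:**
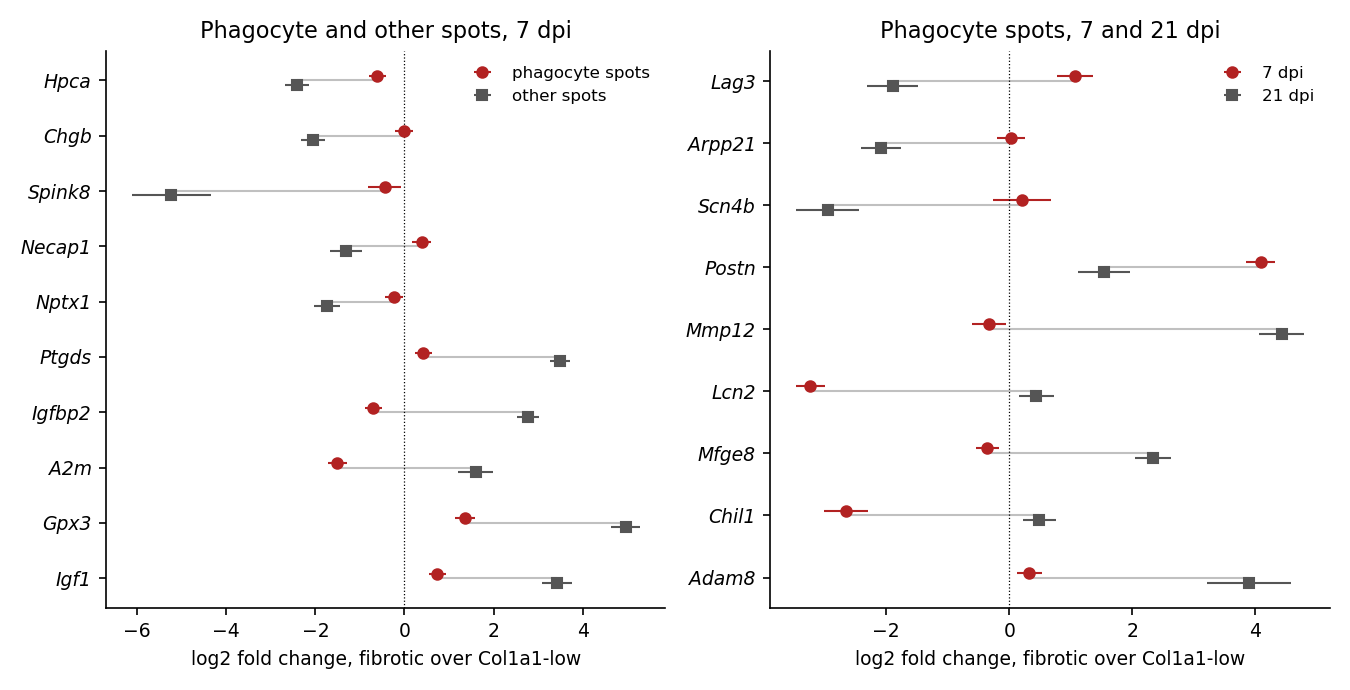
Log2 fold change of fibrotic over Col1a1-low spots (horizontal axis; bars, standard error of the fit) for the genes named from each test of a difference. On the left red circles are phagocyte and grey squares other spots at 7 dpi, on the right red circles are phagocyte spots at 7 dpi and grey squares at 21 dpi; Ptgds is at 0.42 against 3.48, and Mmp12 at -0.33 against 4.43.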

How the data were processed

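Per the labels, reads of 4 Visium capture areas were processed with Space Ranger 2.0.0 on mm10, and the UMI counts that the authors deposited are unnormalised, by spot and gene, beside a table of spot positions. Connected pieces of tissue spots were taken as slices, each 1 mouse. The sum of UMIs per class was 776651 and 3822146 in fibrotic and 2728078 and 1841385 in Col1a1-low phagocyte spots of slices 1 and 2, which limits genes with few UMIs. Levels are UMIs per 10000. Spots are not replicates, so counts were summed per slice and class and tested with edgeR 4.0.16 in R 4.3.3 (filterByExpr, TMM, quasi-likelihood F test, slice as block, Benjamini-Hochberg adjustment, threshold 0.05); Col1a1, Gpnmb and Trem2 were left out. Differences of effects were tested as interactions over 8 sums. Ratios within a slice add 0.5 UMIs to each sum. Slices share a number only as a name across areas; within the area the block is the shared slice.

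On simulated counts with 200 changed genes, the main step, run on 12638 genes, recovered 40% of 2-fold and 91% of 4-fold changes with 4.38% false calls. Apart from the change, each gene had 1 mean in all sums and the spread typical of its level. Differences between slices and the spread of single genes were left out, so false calls in the real data were not measured. The test between phagocyte and other spots recovered 2% of 2-fold and 53% of 4-fold changes with 3.51% false calls. The test between time points recovered 4% and 43% with 0% false calls. Members and the 34 gene lists were chosen with earlier results of these data known. Genes are named by rule: the 10 largest changes per direction with at least 50 UMIs and the same sign in both slices, up to 4 list members with the lowest p and up to 2 with the most UMIs, all scar- and lipid-associated, homeostatic microglia and chemokine genes, and 5 genes per direction of each difference. A few genes that the rule names are not reported here. Ccr2, Itgb8, Smad7, Tgfb1, Vcan, Pf4, Lyve1, Cd163 and genes at 0 fall outside it and were picked with their values in view. Coordinates come from the GENCODE M21 annotation (GRCm38), joined by gene identifier. Alternatives were DESeq2 1.42.0, other scalings, thresholds, depths and edge rules, no block, and leaving out slices; leaving out edge spots was added after seeing the data.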

Additional observations from a re-analysis of the deposited data

Results flagged for a closer look

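In 10 genes the test of the difference found that the fibrosis effect, the log2 fold change of fibrotic over Col1a1-low spots at 7 dpi, was not the same in phagocyte and other spots. The effect in phagocyte spots exceeded that in other spots by 1.85 for Hpca (adjusted p = 0.00713), 1.91 for Chgb (0.0152), 4.59 for Spink8 (0.0283), 1.67 for Necap1 (0.0292) and 1.63 for Nptx1 (0.0367), all by edgeR over 8 sums. It was smaller for Ptgds, with a difference of -3.03 (adjusted p = 7.7e-05), and for Igfbp2 (-3.27), A2m (-2.97), Gpx3 (-3.95) and Igf1 (-2.58), each at 0.00143.

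In 9 genes the effect in phagocyte spots was not the same at 7 and 21 dpi by the same kind of test. It was larger at 7 dpi by 2.96 for Lag3 (adjusted p = 4.38e-06), 2.13 for Arpp21 (6.85e-06), 3.15 for Scn4b (0.0013) and 2.53 for Postn (0.00203). It was smaller at 7 dpi for Mmp12, with a difference of -4.77 (adjusted p = 1.09e-24), Lcn2 (-3.56, 8.23e-18), Mfge8 (-2.75, 2.48e-11), Chil1 (-3.05, 5.55e-09) and Adam8 (-3.60, 0.000124).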

How the results depend on the processing

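Of 1317 genes called between fibrotic and Col1a1-low phagocyte spots, the number moved by over 1.5 times with DESeq2 (396), a minimum of 3 UMIs of Gpnmb plus Trem2 per 10000 (2085), 5 to 15 of them (732), no Col1a1 UMI in the low class (838), spots at least 3 rings from the edge (266, with 5 fibrotic spots left in slice 1) and without edge spots (738). No replicate block gave 713 higher and 463 lower, within that range. With 1 slice left out there are no residual degrees of freedom, so only the ratio within the other slice could be had, and among the named genes that had passed, Pdgfc alone changed sign (-0.077 without slice 2 and 2.70 without slice 1). Genes that had not passed, such as Mmp12 (0.62 and -1.29) and Chgb, also changed sign there. The 138 differences between phagocyte and other spots became 12 with no replicate block, 441 with no filter on low counts, 216 with 5000 UMIs per spot, 392 with other spots under 2 UMIs of Gpnmb plus Trem2, and 15 without edge spots. The 60 differences between 7 and 21 dpi became 22 without edge spots, 0 with no replicate block (663 at an unadjusted p under 0.05, edgeR), 2 with DESeq2, 19 with 5000 UMIs per spot, 392 with the Cthrc1(creER); R26(DTA) slices and 10 to 61 with 1 slice left out. Without slice 2 at 7 dpi 10 were called, without slice 1 29, and without slice 1 at 21 dpi 14; the lone slice is then assumed to vary like the others. The cause of these changes was not tested.

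The share of phagocyte spots among fibrotic spots of slice 1 moved to 67.9% with 10 UMIs of Gpnmb plus Trem2, 92.6% with 10 Col1a1 UMIs and 94.4% with 5000 UMIs per spot, and in slice 2 to 75.8% with 10 and 90.1% with 3. Among Col1a1-low spots it moved to 10.7% (10), 43.8% (3) and 21.4% (no Col1a1 UMI) in slice 1, and to 24.6% (10) and 37.2% (3) in slice 2. Values that changed sign were Mmp12 (1.11) and Lag3 (-0.28) with 5 to 15 UMIs of Gpnmb plus Trem2, Snap25 (0.70), Hpca (0.24) and Chgb (0.72) with 10 or more, and Snap25 (0.60), Hpca (0.00047), Chgb (0.75) and Nptx1 (0.85) with Gpnmb alone. With DESeq2 37 of the named genes that had passed lost their call. The 213 genes named include many that had not passed and so had no call to lose. The share of calls lost is therefore larger than 37 of 213.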
